A study of Mus musculus with 16 samples.

Results

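The response of the liver to sunitinib was read as the difference between 2 sunitinib and 2 vehicle liver libraries, across every gene whose mean regularized log2 value (rlog, a log2 expression value shrunk towards the gene's mean where reads are few) over those 4 libraries was at least 3. This kept 12394 of the 18566 genes of the liver table, out of 24934 gene symbols over the whole series. The genes just inside that limit were Filip1 at 3.0006, Cdr2 at 3.0009 and Zdhhc21 at 3.0010, and those just outside were Ppapdc1b at 2.9989, Tspan5 at 2.9987 and Foxj1 at 2.9981. All libraries were made from total RNA of C57BL/6 mice that were 24 weeks old, and the groups differ only in the treatment label, vehicle or sunitinib (Sutent). No transgene or deletion is named for either group, and no dose, length of treatment or sex of the mice is stated in the labels. The series has 16 libraries from 4 tissues and states 8 mice, 4 per treatment. The labels do not tie libraries to mice, so a p-value reflects only how far these libraries spread, which may be technical. Library values below stand in the order vehicle replicate 1, vehicle replicate 2, sunitinib replicate 3 and sunitinib replicate 4, as the sample titles number them. Differences are sunitinib minus vehicle on the rlog scale ± SE, with n = 2 per group, and adjusted p-values are two-sided limma values with Benjamini-Hochberg adjustment over the 12394 genes. A gene passed where that value was below 0.05.

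Sunitinib is an oral inhibitor of receptor tyrosine kinases, among them the VEGF and PDGF receptors, KIT and the CSF1 receptor. Most RNA of a liver comes from hepatocytes, which make bile acids from cholesterol, secrete large amounts of plasma protein through the endoplasmic reticulum, build fatty acids and lipoproteins, and release hepcidin, the hormone that limits iron export into blood. Hepcidin transcription is driven by bone morphogenetic proteins (BMPs), which sinusoidal endothelial cells supply and which act through SMAD transcription factors. An overload of unfolded protein in the endoplasmic reticulum is sensed by ATF6, IRE1 and PERK, whose downstream factors raise chaperones, disposal proteins and, through the integrated stress response, amino acid genes.

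The liver label held in the data, with high values of hepatocyte genes: Alb (albumin) had a mean rlog value of 20.23, Apoa1 of 17.55, Ttr of 17.01 and Hamp of 12.25. Of 14 lymphocyte genes present 2 were above the limit of 3, Cd4 at 3.88 and Cd79a at 3.14, and among those under it were Cd3e at 1.141 and Ms4a1 at 1.83. Pairs of liver libraries correlated across genes at 0.998 to 0.999. The standard deviation over genes of the difference within a pair was 0.122 for vehicle and 0.123 for sunitinib, and the median sunitinib difference over all genes was 0.0027. The rlog scale carries no read totals, so depth is unknown.

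Of the 12394 genes, 15 rose after sunitinib, which is 0.121%, and 9 fell, which is 0.0726%. At an unadjusted p below 0.05 there were 430 higher and 641 lower genes in limma. The genes that rose were led by Hamp, the hepcidin gene. Further ones were genes of the endoplasmic reticulum (Creld2, Derl3, Hyou1, Sdf2l1, Manf, Syvn1) and targets and transducers of BMP signalling (Smad9, Id1, Id3). The rest were the oxysterol hydroxylase Cyp7b1, the glycogen-targeting phosphatase subunit Ppp1r3c and neutrophil genes (S100a9, S100a8, Ngp). Those that fell were Cyp7a1, Acot3, Slc16a5, Thrsp, Cyp2a5, Cyp2a4, Nipal1, Tk1 and a predicted gene that is not named. In each of the 24 genes the sunitinib libraries lay on 1 side of both vehicle libraries. Over all genes tested, 18.3% had both sunitinib libraries above both vehicle libraries and 19.2% had both below, and these shares are the background for the counts of members that did not overlap.

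**Figure D1:**
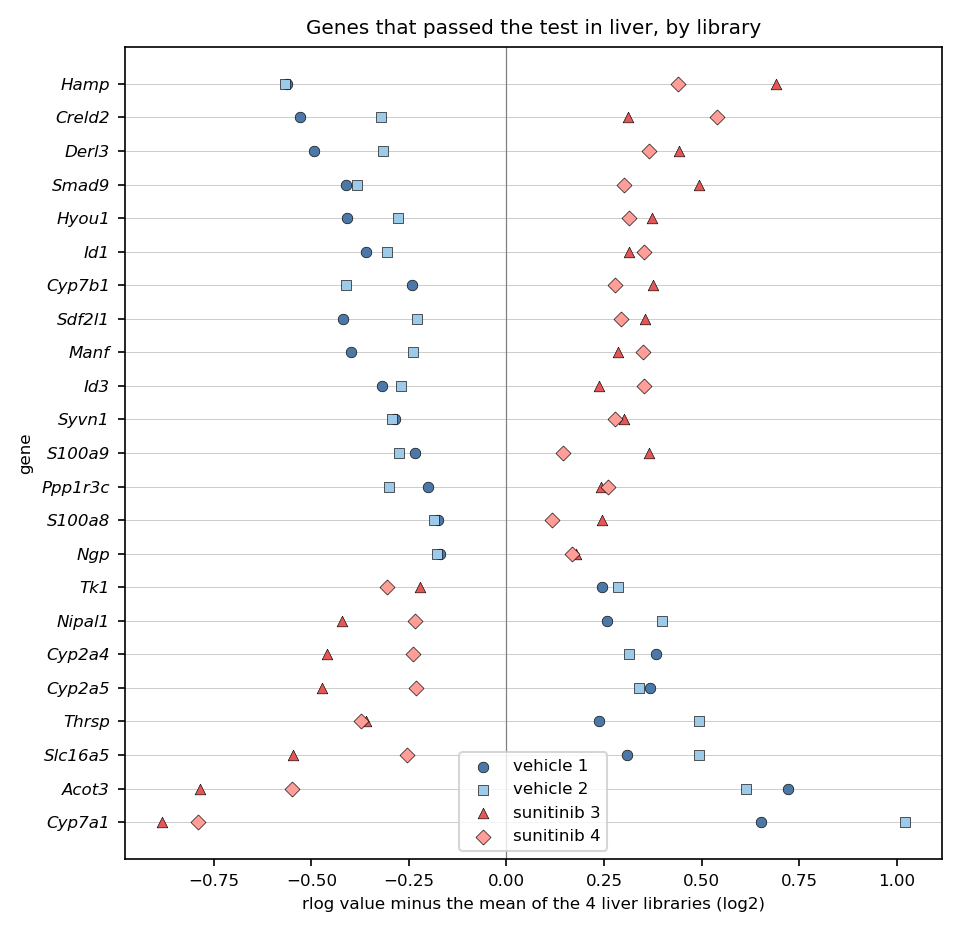
Named genes that passed in liver, with the rlog value of each library minus the mean of the gene's 4 libraries on the x axis (log2) and 1 gene per row. The 2 vehicle libraries are blue and the 2 sunitinib libraries red. In every row the colours separate, most widely for Cyp7a1, Acot3 and Hamp.

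**Figure D2:**
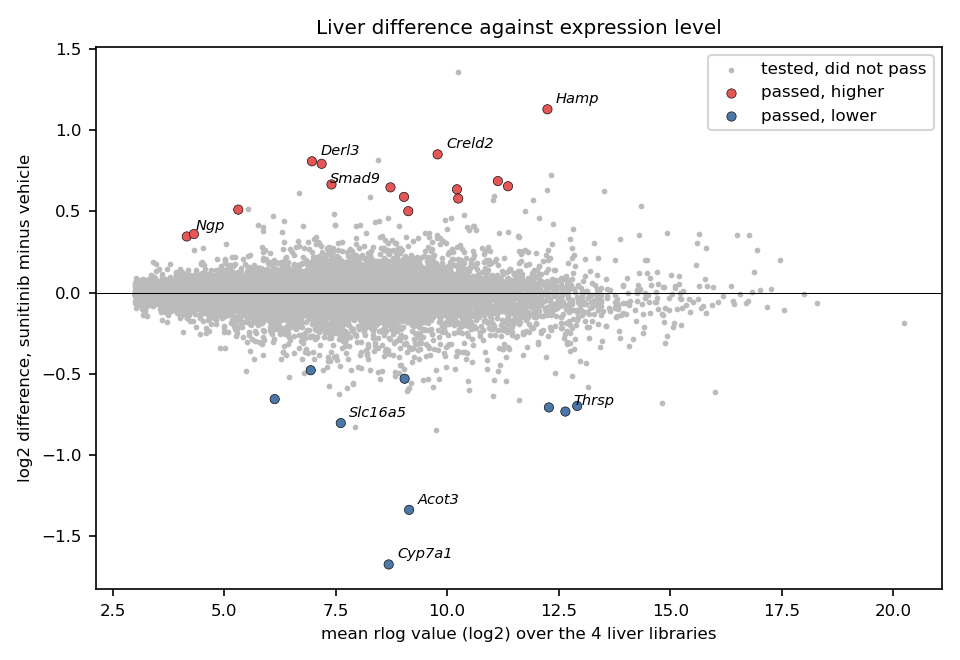
Difference between sunitinib and vehicle (log2, y axis) against the mean rlog value over the 4 liver libraries (x axis) for the 12394 genes tested. Red and blue points passed higher and lower, and grey points did not pass. Passing genes have mean values between 4.16 and 12.91.

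The hepcidin gene Hamp rose by 1.13 ± 0.09 (adjusted p = 0.00198). Its values were 11.69, 11.68, 12.94 and 12.69, so the vehicle libraries were nearly equal and both sunitinib libraries lay far above them. Mice carry a second hepcidin gene, Hamp2, whose longest transcript is identical to that of Hamp at 93.0% of 417 aligned columns in the GRCm38 transcripts. Reads of the pair may have been divided between them by the counting, so both values are uncertain. Hamp2 had values of 11.47, 11.43, 11.90 and 11.69, a difference of 0.34 ± 0.09 (adjusted p = 0.222).

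Id1, Id3 and Smad9 rose as well. Id1 and Id3 encode inhibitors of basic helix-loop-helix transcription factors and are classical BMP targets. Id1 had values of 7.05, 7.10, 7.72 and 7.76 and rose by 0.67 ± 0.07 (adjusted p = 0.0119). Id3, with values of 8.71, 8.76, 9.27 and 9.39, rose by 0.59 ± 0.08 (adjusted p = 0.0190). The paralog Id2 did not pass at 0.41 ± 0.07 (adjusted p = 0.0792), with values of 10.37, 10.36, 10.80 and 10.76 that also did not overlap. Smad9 encodes SMAD8, a receptor-activated SMAD of the BMP branch that is itself a BMP target. It had values of 6.78, 6.80, 7.68 and 7.49 and rose by 0.79 ± 0.08 (adjusted p = 0.0112). The inhibitory SMADs, which are also BMP targets, did not pass and lay on opposite sides of 0. Smad7 stood at 0.17 ± 0.07 (adjusted p = 0.532). Smad6 stood at −0.11 ± 0.07 (adjusted p = 0.769), with both sunitinib libraries below both vehicle libraries.

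Upstream members of the pathway did not pass. The ligand gene Bmp2, made by liver endothelium, stood at −0.21 ± 0.08 (adjusted p = 0.521), the co-receptor endoglin gene Eng at −0.24 ± 0.07 (adjusted p = 0.355) and the hemojuvelin gene Hfe2, a BMP co-receptor of hepatocytes, at −0.18 ± 0.08 (adjusted p = 0.539). Of 27 BMP, SMAD and hepcidin genes tested, 4 rose and 0 fell (7 higher and 3 lower at an unadjusted p below 0.05 in limma), 10 had both sunitinib libraries above and 5 both below, and the median difference was 0.02 (−0.02 without vehicle replicate 1). Among 14 genes of iron uptake, storage and export 0 passed in limma (1 higher and 4 lower at an unadjusted p below 0.05), with a median of 0.0034. Aco1, the iron-sensing aconitase, was at −0.25 ± 0.07 (adjusted p = 0.309) and Steap3, an endosomal iron reductase, at −0.28 ± 0.08 (adjusted p = 0.343).

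The promoters of Hamp and Smad9 are shown because both genes rose and both hold GGCGCC, a GC-rich letter run that SMADs of the BMP branch bind. Each window runs from 250 bases before to 50 bases after the RefSeq gene start and is written 5′ to 3′ on the gene's strand, with GGCGCC in capitals. The build is GRCm38.p6, with Hamp at chr7:30943980-30944279 on the minus strand and Smad9 at chr3:54755332-54755631 on the plus strand.
Hamp: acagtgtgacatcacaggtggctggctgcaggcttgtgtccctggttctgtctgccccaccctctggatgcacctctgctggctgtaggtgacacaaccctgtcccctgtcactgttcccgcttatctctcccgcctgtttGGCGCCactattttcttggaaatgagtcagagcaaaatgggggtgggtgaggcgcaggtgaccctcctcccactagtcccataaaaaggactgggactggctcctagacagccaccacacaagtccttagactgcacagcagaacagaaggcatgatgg
Smad9: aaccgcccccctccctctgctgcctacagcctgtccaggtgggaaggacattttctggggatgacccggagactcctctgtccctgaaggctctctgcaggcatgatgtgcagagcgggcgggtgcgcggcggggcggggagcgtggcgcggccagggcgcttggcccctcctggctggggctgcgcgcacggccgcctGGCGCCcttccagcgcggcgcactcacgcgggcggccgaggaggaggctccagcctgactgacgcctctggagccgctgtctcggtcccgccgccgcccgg
The capitals begin at −109 in Hamp and at −51 in Smad9, counted from the gene start. Searched on both strands, which for this palindrome is 1 search, the letters were in 7 of the 18 BMP-list members with a promoter entry (Bmpr1a, Bmpr2, Hamp, Id2, Neo1, Smad5 and Smad9). They were also in 23.9% of the 8630 tested genes with an entry and 13.4% of all 27025 genes. Among genes that rose and had an entry they were in 2 of 11, or 18.2%. With 10 of 30 members of the endoplasmic reticulum list also holding them, the match is common. The palindrome GTCTAGAC, another SMAD element, was in 1 of the 18 (Smad6) and in 0.248% of all genes.

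The largest group that moved together was the machinery that folds, checks and disposes of proteins in the endoplasmic reticulum. Of 37 members tested 6 rose and 0 fell in limma (21 higher and 0 lower at an unadjusted p below 0.05). In 28 of the 37, or 75.7%, both sunitinib libraries lay above both vehicle libraries, against 18.3% of all genes, and in 0 both lay below. The differences were positive in 36 of 37, against 51.4% of all genes, with a median of 0.23 beside 0.0027 over all genes. The median stayed between 0.16 and 0.30 as each library was left out in turn. The list was chosen with earlier results of these data known, and the 37 include the 6 that rose, so these shares are descriptions only.

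Among the folding proteins, Creld2, a secreted disulfide isomerase of the endoplasmic reticulum, had values of 9.26, 9.46, 10.10 and 10.33 and rose by 0.85 ± 0.10 (adjusted p = 0.0172). Hyou1 is the nucleotide exchange factor of the chaperone BiP. With values of 10.73, 10.86, 11.51 and 11.45, it rose by 0.69 ± 0.08 (adjusted p = 0.0136). Sdf2l1, which forms a complex with BiP and the co-chaperone ERdj3, had values of 8.31, 8.50, 9.09 and 9.02 and rose by 0.65 ± 0.08 (adjusted p = 0.0194). Manf, a secreted factor kept in the lumen by BiP, had values of 9.82, 9.98, 10.51 and 10.57 and rose by 0.64 ± 0.08 (adjusted p = 0.0178). In each of these genes the gap between the groups was wider than the gap between libraries of 1 group. Hspa5, which encodes BiP itself, missed the threshold at 0.63 ± 0.10 (adjusted p = 0.0534), with values of 13.08, 13.32, 13.74 and 13.92. Its co-chaperone gene Dnajb11 (ERdj3) was at 0.41 ± 0.07 (adjusted p = 0.0841), and the oxidase gene Ero1lb at 0.39 ± 0.07 (adjusted p = 0.09996).

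Derl3 and Syvn1 belong to the disposal arm, which moves misfolded proteins back to the cytosol for degradation. Derl3, a derlin of the retrotranslocation complex, had values of 6.48, 6.65, 7.41 and 7.34 and rose by 0.81 ± 0.08 (adjusted p = 0.0109). Syvn1 encodes the ubiquitin ligase HRD1 of the same complex. Its values were 9.96, 9.95, 10.55 and 10.53, the closest agreement within groups among the 6 members that passed, and it rose by 0.58 ± 0.07 (adjusted p = 0.0178).

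Of the sensors and factors that control these genes, none passed. Xbp1, the transcription factor activated by IRE1 splicing, had values of 11.90, 11.74, 12.46 and 12.10 and a difference of 0.46 ± 0.12 (adjusted p = 0.231), and gene-level values do not show its splicing. Ern1, the IRE1 gene and itself a member of the list, was at 0.37 ± 0.09 (adjusted p = 0.193). The list also holds Sec23b, a coat protein of export vesicles and neither a sensor nor such a factor, at 0.30 ± 0.07 (adjusted p = 0.201).

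The integrated stress response list, which covers the amino acid and growth arrest genes downstream of PERK and ATF4, gave other counts. Of 19 members tested 0 passed in limma (1 higher and 1 lower at an unadjusted p below 0.05). Wholly above lay 6 and wholly below 2, where 18.3% and 19.2% of all genes did so. The median was 0.03 and ran from −0.0033 to 0.108 as each library was left out in turn. Chac1, a glutathione-degrading enzyme, was at 0.28 ± 0.11 (adjusted p = 0.487), Atf3, a stress transcription factor, at −0.14 ± 0.06 (adjusted p = 0.576) and Trib3, a pseudokinase, at 0.18 ± 0.09 (adjusted p = 0.648). The difference between the lists was not tested.

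**Figure D3:**
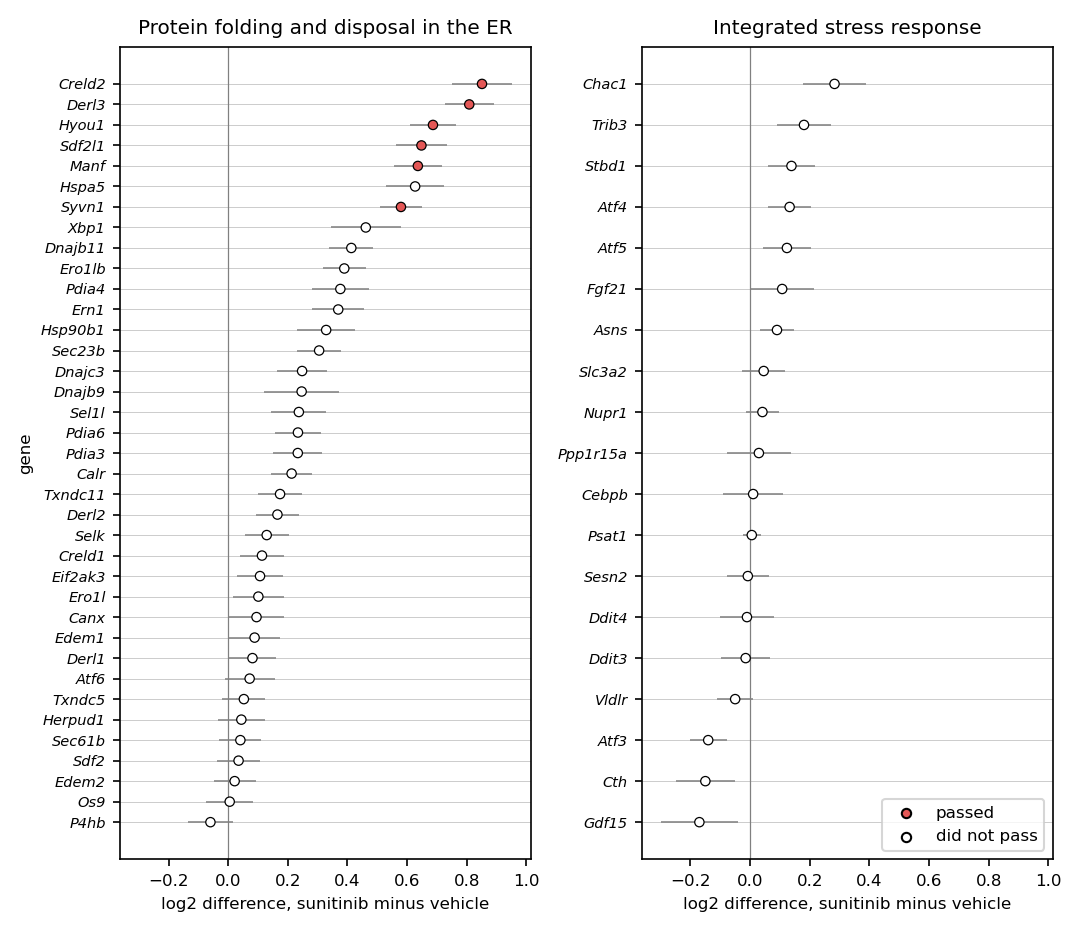
Difference between sunitinib and vehicle (log2, x axis) for 37 genes of protein folding and disposal in the endoplasmic reticulum (ER, left) and 19 genes of the integrated stress response (right), 1 gene per row, with bars of 1 SE from limma. Filled points passed. On the left 36 of 37 points lie above 0, and on the right 12 of 19 do.

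Promoters of 3 of these genes are shown because Derl3, Creld2 and Syvn1 rose and each holds the endoplasmic reticulum stress element, the site of ATF6 with NF-Y. It was searched on both strands as CCAAT, any 9 bases, then CCACG, and the whole match is in capitals. In Derl3 and Creld2 it lies on the opposite strand, so the capitals read CGTGG first and ATTGG last. Windows are 5′ to 3′ on the gene's strand in GRCm38.p6, all on the plus strand: Derl3 at chr10:75893148-75893447, Creld2 at chr15:88819396-88819695 and Syvn1 at chr19:6046326-6046625.
Derl3: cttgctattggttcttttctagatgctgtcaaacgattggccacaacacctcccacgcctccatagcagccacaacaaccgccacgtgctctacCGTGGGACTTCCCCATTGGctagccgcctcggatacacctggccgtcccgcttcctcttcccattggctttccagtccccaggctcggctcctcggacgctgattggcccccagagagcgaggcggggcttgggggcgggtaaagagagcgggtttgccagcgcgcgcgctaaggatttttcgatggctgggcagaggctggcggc
Creld2: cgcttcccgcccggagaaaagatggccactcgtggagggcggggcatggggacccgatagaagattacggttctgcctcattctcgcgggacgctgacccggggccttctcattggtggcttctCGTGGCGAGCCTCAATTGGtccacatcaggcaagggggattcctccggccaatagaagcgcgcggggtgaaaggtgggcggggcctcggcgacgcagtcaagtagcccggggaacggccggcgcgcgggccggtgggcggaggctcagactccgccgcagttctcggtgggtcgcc
Syvn1: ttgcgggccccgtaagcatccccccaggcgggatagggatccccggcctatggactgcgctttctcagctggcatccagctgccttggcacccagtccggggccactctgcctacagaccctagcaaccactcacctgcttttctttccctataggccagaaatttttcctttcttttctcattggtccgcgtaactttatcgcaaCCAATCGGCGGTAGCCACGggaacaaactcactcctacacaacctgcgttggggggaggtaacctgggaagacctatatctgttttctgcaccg
The first base of the capitals lies at −156 in Derl3, −126 in Creld2 and −44 in Syvn1. The same letters stood in 9 of the 30 members with a promoter entry, or 30.0%. They stood in 17 of the 8630 tested genes, or 0.197%, and in 0.137% of all 27025 genes. The share describes the sequences of the list and was not tested against the differences. The differences of tested genes outside the list that hold the letters are not compared here. The sites of the other 6 members, with the fixed letters in capitals and each read from CCAAT to CCACG, show how little the 9 bases between them are shared.
Hspa5: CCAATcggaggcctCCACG
Hsp90b1 at −212: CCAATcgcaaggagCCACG
Hsp90b1 at −107: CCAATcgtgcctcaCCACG
Pdia6: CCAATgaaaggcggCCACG
Dnajc3: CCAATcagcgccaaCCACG
Calr: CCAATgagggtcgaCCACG
Canx: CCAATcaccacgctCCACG
Hsp90b1, the GRP94 chaperone gene, holds the element on both strands. Of the 9 genes with the element 3 passed and 8 had both sunitinib libraries above both vehicle libraries, with a median difference of 0.33. Of the 21 members whose window lacked it 1 passed and 16 lay wholly above, with a median of 0.17. Of the 7 without a promoter entry 2 passed and 4 lay wholly above, with a median of 0.13. The difference between these sets was not tested. Canx was at 0.10 ± 0.09 (adjusted p = 0.863), so holding the letters did not go with a large difference in every member.

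A shorter form of the element (ATTGG, any base, CCACG) was in 2 of the 30 members and in 0.0444% of all genes.
Dnajb11: ATTGGcCCACG
Herpud1: ATTGGgCCACG
Dnajb11 was at 0.41 ± 0.07 and Herpud1, an adaptor of HRD1, at 0.04 ± 0.08 (adjusted p = 0.940). The unfolded protein response element TGACGTGG was in 2 of the 30 (Txndc5 and Txndc11) and in 0.714% of all genes. A match is a run of letters in a window and does not show that a factor binds there.

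Genes of bile acid synthesis moved in opposite directions. Cyp7a1, the rate-limiting enzyme of the classical pathway from cholesterol, showed the largest fall in the liver, by 1.67 ± 0.11 on the log2 scale (adjusted p = 7.97e-04). Its values were 9.34, 9.71, 7.81 and 7.90, so the sunitinib libraries lay close together and far under both vehicle libraries. Cyp7b1, which hydroxylates oxysterols in the alternative pathway, had values of 11.12, 10.95, 11.74 and 11.64 and rose by 0.65 ± 0.08 (adjusted p = 0.0178).

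The other members did not pass. Cyp8b1, the sterol hydroxylase that sets the share of cholic acid, had values of 11.93, 11.94, 10.93 and 11.63 and a difference of −0.66 ± 0.18 (adjusted p = 0.261), with sunitinib replicate 3 well below replicate 4. Akr1d1, a steroid reductase of the pathway, was at −0.47 ± 0.12 (adjusted p = 0.224) and Cyp27a1, which starts the alternative pathway, at −0.22 ± 0.07 (adjusted p = 0.401). Of 14 members 1 rose and 1 fell (1 higher and 4 lower at an unadjusted p below 0.05), 1 lay wholly above and 5 wholly below, and the median was −0.08.

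Among 18 genes of bile acid transport and its control 0 passed in limma (3 higher and 1 lower at an unadjusted p below 0.05), with a median of 0.02. Nr0b2, the nuclear receptor SHP that represses Cyp7a1, had values of 9.21, 9.14, 9.71 and 9.32 and a difference of 0.34 ± 0.12 (adjusted p = 0.439). The uptake carrier gene Slco1a4 was at −0.49 ± 0.14 (adjusted p = 0.282), and Hnf4a, a nuclear receptor of hepatocyte identity that drives Cyp7a1, at 0.31 ± 0.09 (adjusted p = 0.357).

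Acot3, a peroxisomal acyl-CoA thioesterase that releases fatty acids from coenzyme A, fell by 1.34 ± 0.09 on the log2 scale (adjusted p = 7.97e-04). It had values of 9.87, 9.76, 8.36 and 8.60. Its neighbours in the same gene cluster did not pass: Acot4 stood at −0.47 ± 0.08 (adjusted p = 0.0792), Acot2 at −0.34 ± 0.08 (adjusted p = 0.193) and Acot1 at −0.25 ± 0.08 (adjusted p = 0.403). Acot1 and Acot3 transcripts are identical at 84.8% of 1232 aligned columns. Of 11 thioesterases tested 1 fell and 0 rose (0 higher and 6 lower at an unadjusted p below 0.05), and 8 lay wholly below, or 72.7% beside 19.2% of all genes, with a median of −0.17. Several of these genes are targets of PPARα, the fatty acid sensor of the liver. In the list of 28 genes of fatty acid oxidation and PPARα targets 0 passed in limma (0 higher and 2 lower at an unadjusted p below 0.05), 3 lay wholly below and the median was −0.06, which came to 0.02 when sunitinib replicate 3 was left out and to −0.11 when sunitinib replicate 4 was. Pdk4, a kinase that spares glucose when fat is burned, had values of 7.004, 6.43, 6.18 and 6.21 and a difference of −0.52 ± 0.15 (adjusted p = 0.308), which came to −0.23 when vehicle replicate 1 was left out and to −0.81 when vehicle replicate 2 was. Acaa1b, a peroxisomal thiolase, was at −0.33 ± 0.10 (adjusted p = 0.363).

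Several of the genes that passed are known to differ between male and female mouse liver under the control of growth hormone. Of 23 genes that are higher in males 1 rose (Cyp7b1) and 0 fell (14 higher and 0 lower at an unadjusted p below 0.05). In 16 of the 23, or 69.6%, both sunitinib libraries lay above both vehicle libraries, 22 were positive, and the median was 0.26. Members next to Cyp7b1 by p-value were Scara5, a ferritin receptor, at 0.59 ± 0.10 (adjusted p = 0.0830), Ugt2b38, a glucuronosyltransferase, at 0.38 ± 0.07 (adjusted p = 0.09996), and Nudt7, a coenzyme A hydrolase, at 0.39 ± 0.09 (adjusted p = 0.193). The elongase gene Elovl3 was at 0.40 ± 0.09 (adjusted p = 0.193) and the pheromone carrier gene Mup20 at 0.35 ± 0.09 (adjusted p = 0.240). Many urinary protein genes of the Mup family are near-identical, so single values of that family are uncertain.

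Of 15 genes that are higher in females 2 fell (Acot3 and Cyp2a4) and 0 rose (2 higher and 9 lower at an unadjusted p below 0.05). Both sunitinib libraries lay below both vehicle libraries in 10, or 66.7%, and above in 2, with a median of −0.17 that was −0.10 without sunitinib replicate 3. Fmo2, a flavin monooxygenase, had values of 8.30, 8.30, 7.86 and 7.81 and a difference of −0.46 ± 0.07 (adjusted p = 0.0517). Cyp17a1, a steroid hydroxylase, was at −0.53 ± 0.08 (adjusted p = 0.0534). The female-high genes did not all lie lower: Cyp2b13 was at 0.47 ± 0.10 (adjusted p = 0.141), with values of 5.71, 6.03, 6.35 and 6.33. Of 14 genes of growth hormone and insulin-like growth factor signalling 0 passed in limma (2 higher and 1 lower at an unadjusted p below 0.05), with a median of −0.04. Onecut1 (HNF6), a hepatocyte factor that growth hormone regulates, was at 0.44 ± 0.07 (adjusted p = 0.0689) and Igfbp3, a carrier of IGF1, at −0.34 ± 0.08 (adjusted p = 0.193).

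Cyp2a4 and Cyp2a5 encode steroid and coumarin hydroxylases and fell by similar amounts. Cyp2a5 had values of 12.65, 12.62, 11.81 and 12.05 and a difference of −0.71 ± 0.09 (adjusted p = 0.0178). Cyp2a4 had values of 13.30, 13.23, 12.46 and 12.68 and a difference of −0.70 ± 0.09 (adjusted p = 0.0178). Their transcripts are identical at 98.2% of 1739 aligned columns, so the 2 values may not be separate measurements. Of 36 xenobiotic cytochrome P450 genes, their reductase and their receptors 2 fell and 0 rose (3 higher and 14 lower at an unadjusted p below 0.05), 18 lay wholly below and 4 wholly above, with a median of −0.11. Nr1i3, the xenobiotic receptor CAR, was at −0.49 ± 0.10 (adjusted p = 0.132) and Cyp1a2, a target of the aryl hydrocarbon receptor, at −0.42 ± 0.09 (adjusted p = 0.145).

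Cyp1a2 is also a gene of the pericentral zone, where hepatocytes around the central vein express Wnt target genes. Of 16 pericentral genes 0 passed in limma (0 higher and 6 lower at an unadjusted p below 0.05), 10 lay wholly below, or 62.5%, and 0 wholly above, with a median of −0.15 that was −0.09 without sunitinib replicate 3. Glul, glutamine synthetase, was at −0.30 ± 0.07 (adjusted p = 0.211) and Rhbg, an ammonium transporter, at −0.26 ± 0.07 (adjusted p = 0.250). Of 15 periportal genes 0 passed in limma (0 higher and 1 lower at an unadjusted p below 0.05), 5 lay wholly below and the median was −0.07.

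Genes that build cholesterol lay lower as a group without any single one passing. Of 25 members 0 passed in limma (0 higher and 16 lower at an unadjusted p below 0.05), and in 19, or 76.0% beside 19.2% of all genes, both sunitinib libraries lay below both vehicle libraries. All 25 differences were negative and the median was −0.34. The 2 sunitinib libraries were not alike: the medians of the 25 centred values were 0.14 and 0.17 in the vehicle libraries, −0.35 in sunitinib replicate 3 and 0.01 in sunitinib replicate 4. Without sunitinib replicate 3 the median difference was −0.13, and without sunitinib replicate 4 it was −0.52.

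By single gene, Dhcr7, a reductase of the last steps of the pathway, had values of 9.29, 9.49, 8.52 and 9.06 and a difference of −0.61 ± 0.15 (adjusted p = 0.225). Fdft1, squalene synthase, had values of 10.66, 10.62, 10.12 and 10.41 and a difference of −0.37 ± 0.10 (adjusted p = 0.250). In both genes sunitinib replicate 3 was the lowest library. Sqle, squalene epoxidase, and Idi1, an isomerase of isoprenoid synthesis, were among the 5 genes with the widest gap between the sunitinib libraries. Sqle had values of 9.11, 9.02, 8.49 and 9.34 and Idi1 of 11.35, 11.33, 10.62 and 11.38, with replicate 4 at or above the vehicle level in each. The sterol regulatory element TCACNCCAC, the site of SREBP factors, was in 1 of 16 members with a promoter entry (Hmgcs1) and in 1.44% of all genes. Of the 6 genes that fell and had a promoter entry it was in 2, Cyp2a4 and Cyp2a5. Transcripts of this pair are identical at 98.2% of aligned columns, and the matches begin at 10 and 9, counted from the gene start. They may therefore not be separate cases, and a link between the letters and the fall was not tested.

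Fatty acid and triglyceride synthesis genes lay lower too, and 1 passed. Thrsp, a nuclear regulator of lipogenesis that thyroid hormone and carbohydrate induce, had values of 12.89, 13.14, 12.29 and 12.28 and a difference of −0.73 ± 0.09 (adjusted p = 0.0178). Its sunitinib libraries were nearly equal. Of 25 members 1 fell and 0 rose (1 higher and 12 lower at an unadjusted p below 0.05), 16 lay wholly below, or 64.0%, and 1 wholly above, with a median of −0.19. Srebf1, the lipogenic transcription factor, had values of 11.95, 11.84, 11.42 and 11.60 and a difference of −0.39 ± 0.09 (adjusted p = 0.162). Scd1, the main liver desaturase, was at −0.61 ± 0.14 (adjusted p = 0.184), Acss2, an acetyl-CoA synthetase, at −0.64 ± 0.15 (adjusted p = 0.193), and Acacb, the carboxylase that makes malonyl-CoA at mitochondria, at −0.47 ± 0.11 (adjusted p = 0.193). The member that lay wholly above was Lpin1, a phosphatidate phosphatase and coactivator, with values of 11.94, 11.91, 12.90 and 12.21 and a difference of 0.63 ± 0.17 (adjusted p = 0.279). Of 11 thyroid hormone genes, Thrsp was the 1 that fell and 0 rose (2 higher and 1 lower at an unadjusted p below 0.05), with a median of 0.03.

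**Figure D4:**
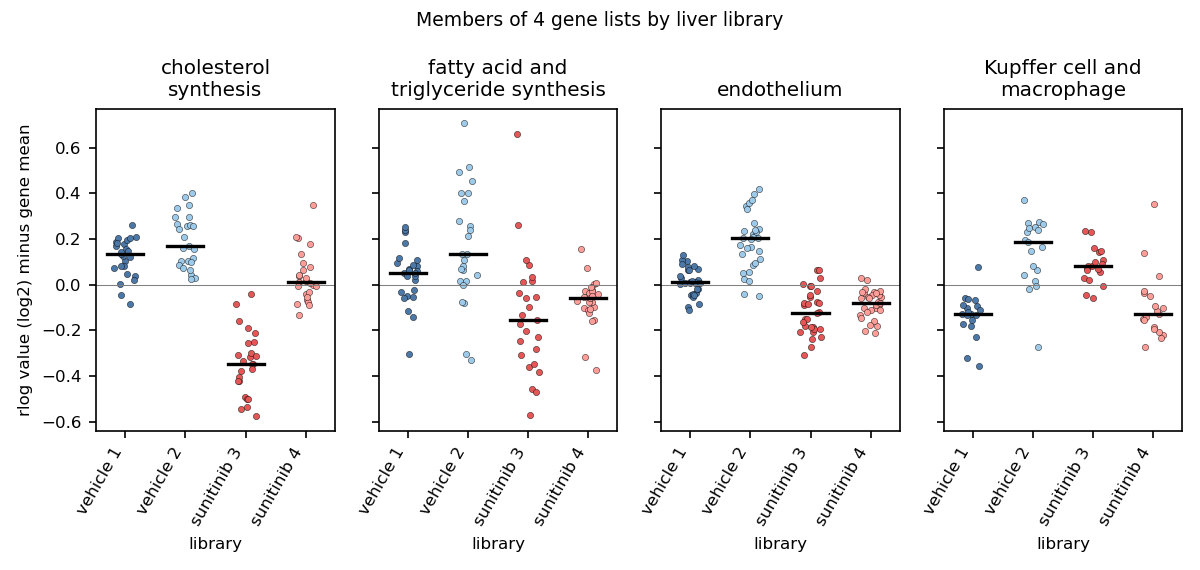
Values of list members by library, each as the rlog value minus the mean of the gene's 4 libraries (log2, y axis), for cholesterol synthesis (25 genes), fatty acid and triglyceride synthesis (25), endothelium (30) and Kupffer cells and macrophages (19). Points are genes and black bars their median in the library. Sunitinib replicate 3 is the lowest library for cholesterol genes, and vehicle replicate 2 the highest for endothelial and Kupffer cell genes.

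Some genes that passed belong to none of the groups above. Ppp1r3c, which brings protein phosphatase 1 to glycogen and favours glycogen synthesis, had values of 8.93, 8.83, 9.37 and 9.39 and rose by 0.50 ± 0.07 (adjusted p = 0.0395). Slc16a5, of the monocarboxylate transporter family, had values of 7.93, 8.11, 7.07 and 7.36 and a difference of −0.80 ± 0.11 (adjusted p = 0.0220). Nipal1, a magnesium transporter, had values of 6.39, 6.53, 5.71 and 5.90 and a difference of −0.66 ± 0.08 (adjusted p = 0.0178). Tk1, the thymidine kinase of the S phase, was the 1 member of 19 proliferation genes that passed. It had values of 9.29, 9.33, 8.82 and 8.74 and a difference of −0.53 ± 0.07 (adjusted p = 0.0289), while the median of the list was −0.0065. Of 21 glucose and insulin genes 0 passed in limma (0 at an unadjusted p below 0.05), with a median of −0.05.

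The neutrophil genes S100a8, S100a9 and Ngp rose at low values. The first 2 encode the subunits of calprotectin, and Ngp is a granule protein. S100a9 had values of 5.08, 5.04, 5.68 and 5.46 and rose by 0.51 ± 0.08 (adjusted p = 0.0385), S100a8 had values of 4.15, 4.14, 4.57 and 4.44 and rose by 0.36 ± 0.05 (adjusted p = 0.0298), and Ngp had values of 4.00, 3.99, 4.34 and 4.33 and rose by 0.35 ± 0.04 (adjusted p = 0.0136). Of 10 neutrophil markers tested 3 rose and 0 fell (5 higher and 0 lower at an unadjusted p below 0.05). Differences were positive in 5 and negative in 5, with a median of 0.08 that was 0.03 without sunitinib replicate 3 and 0.15 without vehicle replicate 2. The negative members were Cebpe, a granulocyte transcription factor, at −0.14 ± 0.08, Lcn2, which binds siderophores, at −0.08 ± 0.13, the integrin gene Itgam at −0.06 ± 0.05 and the receptor genes Cxcr2 and Csf3r at −0.03 ± 0.06 and −0.02 ± 0.04, and none of them passed. The granule genes Ltf and Camp did not pass at 0.18 ± 0.03 and 0.19 ± 0.04 (adjusted p = 0.111 and 0.191), and the defining marker Mpo was under the limit with a mean of 1.63. The summed rlog values of the 10 markers were 45.2 and 45.4 in the vehicle libraries and 47.0 and 46.1 in the sunitinib libraries. In bulk tissue more or fewer cells of a type and more or less RNA per cell cannot be told apart.

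Genes of endothelial cells, which carry the vascular targets of the drug, lay lower without passing. Of 30 members 0 passed in limma (0 higher and 16 lower at an unadjusted p below 0.05), 21 lay wholly below, or 70.0%, and 1 wholly above, with a median of −0.19. Lyve1, a hyaluronan receptor of sinusoidal endothelium, had values of 5.14, 5.26, 4.82 and 4.90 and a difference of −0.34 ± 0.06 (adjusted p = 0.0841). The sinusoidal lectin gene Clec4g had values of 9.05, 9.31, 8.72 and 8.74 and a difference of −0.45 ± 0.09 (adjusted p = 0.141). Wnt2, a ligand that endothelium of the central vein region supplies to hepatocytes, was at −0.24 ± 0.06 (adjusted p = 0.193). Stab2, another sinusoidal marker, was under the limit with a mean of 2.40.

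The summed rlog values of the 30 endothelial genes were 214.0 and 219.2 in the vehicle libraries and 210.1 and 211.1 in the sunitinib libraries. Vehicle replicate 2 was highest, and it was also highest for the 19 Kupffer cell and macrophage genes, whose sums were 139.2, 144.6, 143.4 and 140.0. Leaving out vehicle replicate 2 gave an endothelial median difference of −0.12, while leaving out vehicle replicate 1 gave −0.29. With 2 vehicle libraries, leaving out the higher one makes a negative difference smaller by construction, so these values do not measure its part. In the Kupffer list Id3, also a BMP target, was the 1 member that passed, 0 lay wholly below, and the median of −0.07 was 0.09 without vehicle replicate 2. The median of 24 stellate cell and matrix genes was −0.10 (−0.04 without vehicle replicate 2 and −0.15 without sunitinib replicate 4), with 0 past the test in limma (2 higher and 2 lower at an unadjusted p below 0.05).

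Of the 9 kinase genes that sunitinib is known to inhibit, 7 were tested and Flt3 and Ret were under the limit. None passed in limma, 4 were lower at an unadjusted p below 0.05, 4 lay wholly below, and the median was −0.21, and it came to −0.12 when vehicle replicate 2 was left out and to −0.26 when vehicle replicate 1 was. Vehicle replicate 2 was the highest library for Kdr, Flt1 and Flt4. The VEGF receptor genes stood at −0.31 ± 0.12 for Kdr (adjusted p = 0.502), −0.25 ± 0.09 for Flt1 (adjusted p = 0.420) and −0.24 ± 0.09 for Flt4 (adjusted p = 0.502). Kit, the receptor of stem cell factor, had values of 5.51, 5.52, 5.33 and 5.27 and a difference of −0.21 ± 0.06 (adjusted p = 0.250). Csf1r, which marks macrophages, was at −0.14 ± 0.12 (adjusted p = 0.830), and the PDGF receptor genes were at −0.11 ± 0.07 for Pdgfra (adjusted p = 0.748) and −0.08 ± 0.07 for Pdgfrb (adjusted p = 0.863). Of 11 genes for their ligands 0 passed in limma (0 higher and 1 lower at an unadjusted p below 0.05), with a median of −0.01.

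**Figure D5:**
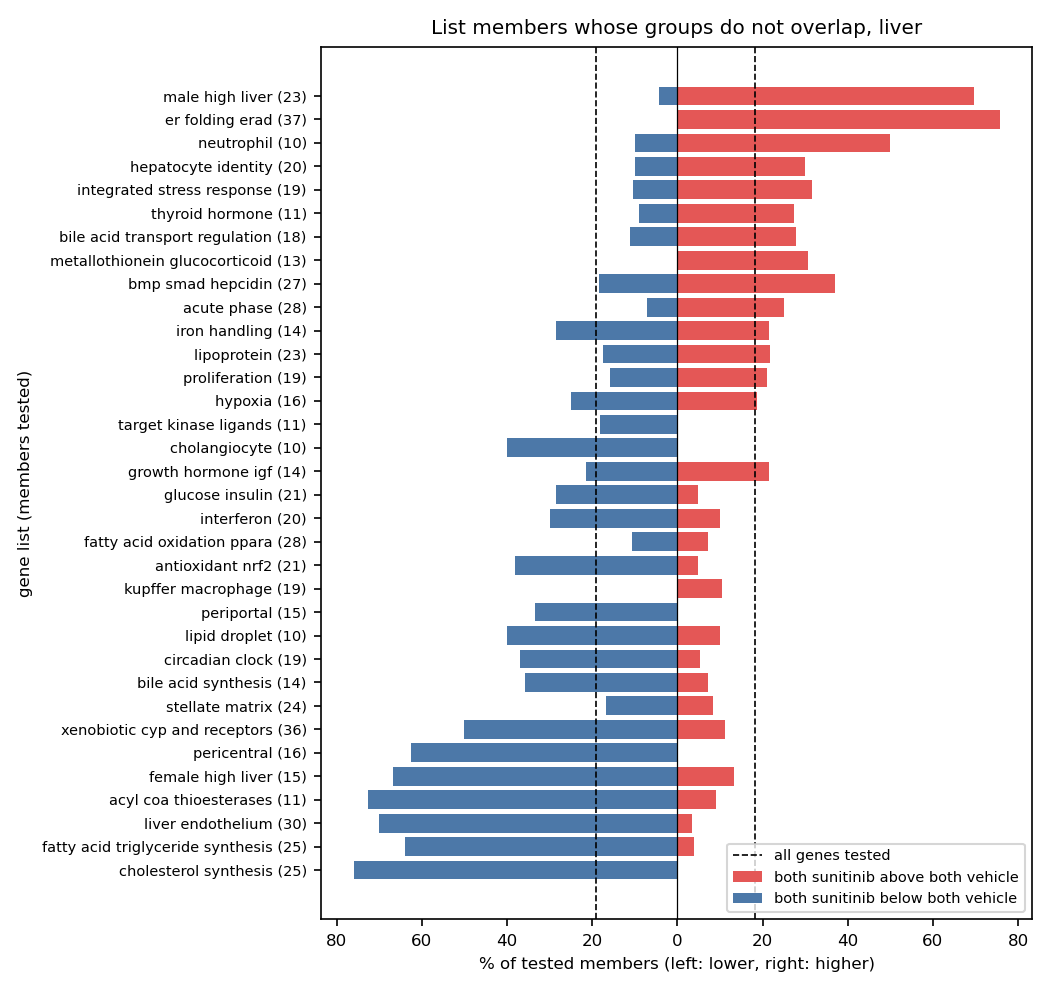
Share of tested members (%, x axis) whose sunitinib libraries both lie above (red, right) or both below (blue, left) the vehicle libraries, for gene lists with at least 10 members tested, ordered by median difference, with the number tested in brackets. Dashed lines give the shares over all genes tested, 18.3% higher and 19.2% lower. Endoplasmic reticulum folding and disposal genes reach 75.7% higher, and cholesterol synthesis genes 76.0% lower.

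Other liver programmes gave values without a passing gene. Of 28 acute phase genes 0 passed in limma (6 higher and 1 lower at an unadjusted p below 0.05), with a median of 0.0081, and the fibrinogen genes Fga, Fgg and Fgb were at 0.36 ± 0.07, 0.31 ± 0.07 and 0.27 ± 0.08 (adjusted p = 0.132, 0.192 and 0.294). Saa2 and Saa1, the serum amyloid genes, had the widest gap of all genes within the vehicle group. Saa2 had values of 7.47, 9.23, 7.62 and 7.43 and Saa1 of 9.35, 11.003, 9.54 and 9.12, so only vehicle replicate 2 was high. Within the sunitinib group the widest gap was in Socs2, a growth hormone target and feedback inhibitor, with values of 8.45, 7.94, 9.11 and 7.84. Others with wide gaps were Scd3, Igfbp1 and Scd2 between the vehicle libraries and Pfkfb3 and Rgs16 between the sunitinib libraries. Among 19 clock genes 0 passed in limma (1 higher and 3 lower at an unadjusted p below 0.05), and Per3, a clock repressor, was at −0.45 ± 0.08 (adjusted p = 0.0792). Of 21 antioxidant genes 0 passed in limma (0 higher and 4 lower at an unadjusted p below 0.05), with the glutathione transferase gene Gsta2 at −0.39 ± 0.07 (adjusted p = 0.1001). Of 23 lipoprotein genes 0 passed in limma (3 higher and 4 lower at an unadjusted p below 0.05), with Apoa5, which promotes triglyceride clearance, at 0.37 ± 0.07 (adjusted p = 0.128). Of 20 interferon genes 0 passed in limma (0 at an unadjusted p below 0.05), with a median of −0.05.

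Just beyond the threshold, besides genes named above, stood Pik3ap1, a signalling adaptor, at 0.45 ± 0.08 (adjusted p = 0.0841), H2-Eb1, an MHC class II chain, at −0.57 ± 0.09 (adjusted p = 0.0534), Dsg1c, a desmosomal cadherin, at −0.45 ± 0.07 (adjusted p = 0.0571), and Gas6, a ligand of the TAM receptors, at −0.47 ± 0.08 (adjusted p = 0.0689). H2-Eb1 had values of 7.54, 7.75, 7.14 and 7.01, which do not overlap.

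Whether the sunitinib effect on the passing genes differed from that in each fat depot was tested as the difference of the effects. The limma fits over both tissues treated all libraries as independent. The labels do not tie libraries to mice, so tissues may share animals, which the fits did not account for. Of 11831 genes tested against epididymal fat 467, or 3.95%, differed, and so did 14 of the 19 passing liver genes that could be tested, which were chosen on the liver effect. In epididymal fat itself Thrsp was at 0.69 (adjusted p = 0.0938), Syvn1 at −0.11 (adjusted p = 0.358), Hyou1 at −0.04 (adjusted p = 0.862), Derl3 at 0.07 (adjusted p = 0.508) and Id3 at −0.14 (adjusted p = 0.468). Tk1 fell there by 0.51 (adjusted p = 0.0492), and its difference from liver was −0.02 (adjusted p = 0.949). Against brown fat 0% of 11204 genes differed in limma (1610 at an unadjusted p below 0.05), and 0 of 14 passing liver genes did (13 at an unadjusted p below 0.05, smallest adjusted p 0.0642). Against inguinal fat 0.043% of 11626 genes differed in limma (1597 at an unadjusted p below 0.05). Of 18 passing liver genes, chosen on the liver effect, 0 did (9 at an unadjusted p below 0.05, smallest adjusted p 0.0633). Hamp, Cyp7a1 and Acot3 were under the limit of 3 in every fat table and were not compared.

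How many genes passed depended on how the spread of single genes was estimated. Without the intensity trend in the variance, Hamp was the 1 gene that rose, and Cyp7a1 and Acot3 the 2 that fell. With 1 fit over the 4 tissues Derl3, Smad9, Id1, Syvn1, Sdf2l1, S100a8, S100a9, Ppp1r3c, Thrsp, Slc16a5 and Tk1 no longer passed, and Nipal1 and Ngp were not in that fit. Every direction given above for a passing gene was the same under each alternative run.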

How the data were processed

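The authors deposited regularized log2 (rlog) values, in a separate table for each tissue; the unit is taken from the table names. Tools listed in the submitters' processing notes are DESeq2, bedtools, TopHat2 2.1.1 and bcl2fastq 2.17.1.14, and the build is mm9. What each did, the annotation and whether strand was used is not given in the sources used here, so reads of overlapping genes cannot be told apart. Shrinkage lowers the log2 differences and the spread of genes with few reads. Read totals are not kept on this scale, so no counting interval is given. All 4 liver columns were matched to samples by their description labels, and no library repeated another. For the sunitinib livers the titles say replicates 3 and 4 and the descriptions S1 and S2. Of the symbols, 20 in the liver table (17 tested) were turned into dates and are not named.

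Genes with a mean of at least 3 entered a fit in limma (3.58.1, under R 4.3.3) that had an intensity trend, 2 residual and 7.18 prior degrees of freedom, Benjamini-Hochberg adjustment over 12394 genes and a threshold of 0.05. The scripts were tested on simulated data. An exact permutation test of 2 against 2 libraries cannot go below 0.333 and was not used. Tissue differences were interaction contrasts over genes with a mean of at least 3 in both tables, each normalized on its own. Leave-one-library-out fits, other filters, scalings and variance models were tried as alternatives.

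The 39 gene lists (724 unique genes, 31 not in the liver table) are described by counts and medians. The comparison and lists were chosen with earlier results of these data known. Named were all passing genes without predicted or date-like names, the 5 nearest beyond the threshold in each direction, up to 6 further members of a described list by p-value, all target kinases, cell type markers, and the 5 genes with the widest gap within each group. Genes named for a promoter match are the members holding the letters. Promoter windows came from RefSeq for GRCm38.p6, where 17 of the 24 passing genes and 30 of the 37 endoplasmic reticulum genes had an entry. Transcript identities came from local alignment of the longest GENCODE coding transcripts of GRCm38 with biopython 1.88. No mm9 coordinates were used. Some genes that the naming rule selects are not reported here.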

Additional observations from a re-analysis of the deposited data

Results flagged for a closer look

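In 14 genes that passed in liver the sunitinib effect differed from that in epididymal fat by the test of the difference itself (limma, adjusted p below 0.05 over 11831 genes). The liver minus epididymal differences were 0.87 for Sdf2l1, 0.86 for S100a8, 0.74 for Derl3, 0.73 for Id3, 0.72 for Hyou1, 0.72 for Creld2, 0.69 for Syvn1, 0.62 for Manf, 0.51 for Cyp7b1 and 0.50 for S100a9. They were −1.43 for Thrsp, −0.76 for Nipal1, −0.75 for Cyp2a4 and −0.73 for Cyp2a5. Thrsp fell in liver and was at 0.69 in epididymal fat (adjusted p = 0.0938), and S100a8 rose in liver and was at −0.50 in epididymal fat (adjusted p = 0.0933). The tables were normalized and shrunk separately, and the part of this in the differences was not tested. Libraries of both tissues were treated as independent, though they may come from the same mice.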

How the results depend on the processing

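With 2 libraries per group the number of passing genes depended on the variance model and on single libraries. Against 15 higher and 9 lower genes, 1 and 2 passed without the intensity trend. Leaving out vehicle replicate 1, vehicle replicate 2, sunitinib replicate 3 or sunitinib replicate 4 gave 48, 21, 42 or 175 higher and 119, 29, 68 or 279 lower genes, where the lone library is assumed to vary like the other group. Those sets held the passing genes again, except for Ppp1r3c without vehicle replicate 2. More genes passed with fewer libraries, so holding them again does not show that they are stable. Numbers in the sample descriptions are shared across the liver groups but the titles number them differently, and deviations of same-numbered libraries correlated at 0.435 over genes, with only 2 pairs. Under a replicate block on these numbers 287 higher and 470 lower genes passed. No filter, a minimum mean of 5, quantile normalization, median centring, a robust fit and 1 fit over the 4 tissues gave 11 to 16 higher and 6 to 13 lower genes. S100a8, S100a9, Ppp1r3c and Tk1 no longer passed with no filter or with quantile normalization, and Slc16a5 with quantile normalization. With a minimum mean of 5, S100a9 and Ppp1r3c no longer passed, and S100a8 and Ngp were not tested.

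Of the passing liver genes, those that differed from epididymal fat went from 14 to 7 with a minimum mean of 5, to 3 with 1 fit over the 4 tissues and to between 5 and 10 without single replicates (5 without vehicle replicate 1, 9 without vehicle replicate 2). For brown fat 3 differed with no filter and 0 to 1 without single replicates (1 without sunitinib replicate 4). For inguinal fat 1 differed with no filter, 5 with 1 fit over the 4 tissues and 0 to 0 without single replicates. Of 167 single genes recomputed, 17 changed sign in a fit that left out 1 library, and none of the 17 had passed. Over the 4 such fits the ranges were −0.38 to 0.014 for Vnn1, −0.016 to 0.43 for Adipoq, −0.72 to 0.037 for Idi1, −0.57 to 0.27 for Sqle and −0.36 to 0.92 for Socs2, all of which crossed 0 without sunitinib replicate 3. Those that crossed without vehicle replicate 2 were Ctss (−0.49 to 0.011), Mpeg1 (−0.36 to 0.016), Saa2 (−1.70 to 0.052), Lcn2 (−0.31 to 0.15) and Itgam (−0.14 to 0.015). Without vehicle replicate 1 they were Igfbp1 (−0.80 to 0.11), Canx (−0.015 to 0.21) and Herpud1 (−0.039 to 0.13), and without sunitinib replicate 4 Csf1r (−0.29 to 0.013). Rgs16 (−0.19 to 0.62) crossed without vehicle replicate 2 and without sunitinib replicate 3, and Cxcr2 (−0.11 to 0.049) and Csf3r (−0.060 to 0.030) without vehicle replicate 1 and without sunitinib replicate 4. Of the values of these 167 genes under the alternatives, 1633 kept direction and side of the threshold, 283 newly passed and 43 no longer passed. Of the list medians under the alternatives 377 moved by less than the spread between replicates and 55 by more. As single libraries were left out, 16 of 36 list medians changed sign, all at most 0.110 from 0, and 14 others moved by over 1.5 times. Where a call changed, the cause was not tested.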

Other observations

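Further liver genes gave values that did not pass. Mt1 and Mt2, the metallothioneins that bind zinc, were at −0.53 and −0.56 (adjusted p = 0.573 and 0.563), while Slc30a10, a manganese exporter, was at 0.44 (adjusted p = 0.134). Aldh1b1, a mitochondrial aldehyde dehydrogenase of the periportal list, was at −0.59 (adjusted p = 0.0841). Col4a2 and Col4a1, the basement membrane collagens, were at 0.31 and 0.22 (adjusted p = 0.272 and 0.533). Of 16 hypoxia genes 0 passed in limma (1 higher and 2 lower at an unadjusted p below 0.05), with a median of −0.0079. Adipoq, an adipocyte gene that attached fat could bring into a liver sample, had values of 5.30, 5.36, 5.76 and 5.31, with sunitinib replicate 3 highest. The 8 adipocyte markers tested had summed rlog values of 46.5, 46.4, 48.1 and 46.0 in the same order. Their differences were positive in 6 and negative in 2, which the sums do not show. The negative members were Cfd at −0.28 and Pparg at −0.34, each with both sunitinib libraries below both vehicle libraries. Whether attached fat contributed to any liver library was not tested.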
